A study of Arabidopsis thaliana with 128 samples.

Results

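The heat response of *poliv* seedlings of *Arabidopsis thaliana* was examined by mRNA sequencing in 7 libraries, chosen by their labels as all day 7 seedling libraries of this genotype among the 128 libraries of the mRNA table. Of the 7, 4 came from seedlings exposed to 37 °C (replicates 1, 2, 3 and 4) and 3 from control seedlings kept at the regular growth temperature (replicates 1, 3 and 4). Both groups carry *nrpda-3*, an insertion allele of the gene for the largest subunit of RNA polymerase IV, and both hold the stem cell reporter *pCLV3::H2BmCherry* in the Col-0 ecotype. The plants were grown in vitro, the stress lasted for 1 day up to day 7, and the material was the whole above-ground seedling without roots. The same treatment was given to wt seedlings (the reporter in Col-0; 4 heat and 4 control libraries), to seedlings of *ddm1* (*ddm1-10*, a chromatin remodeler mutant, with the same reporter; 4 heat and 4 control libraries) and to sorted *poliv* stem cell nuclei (8 heat and 8 control libraries), which serve below only for comparison. Each genotype is represented by a single mutant allele, and no source used here states that replicates came from separate plantings, so the tests below take in no more than the scatter among the sampled libraries, part of which may be technical.

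High temperature unfolds proteins, and plant cells answer within minutes through heat shock transcription factors, which bind heat shock elements in promoters and switch on chaperones of the HSP100, HSP90, HSP70 and small heat shock protein families. In the same hours, genes of photosynthesis, growth and cell division are commonly turned down. RNA polymerase IV makes the precursors of the small RNAs that direct DNA methylation to transposable elements (TEs), and the *ONSEN* copies of the *ATCOPIA78* family are TEs whose own promoter holds heat shock elements.

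The values are read counts divided by a size factor per library, called normalized counts here. Total reads were 12495183 to 17611137 in the heat libraries and 12744429 to 14962629 in the control libraries. Over the 16831 genes tested, log2 values correlated at r = 0.918 to 0.963 among heat libraries and at 0.926 to 0.950 among control libraries, and the pairs nearest to each other were heat replicates 1 and 2 (r = 0.963), heat replicates 3 and 4 (r = 0.958) and control replicates 3 and 4 (r = 0.950). Several genes below differ between these pairs inside the heat group or are apart in control replicate 1, and their values are given per library. The split by replicate number was not confined to *poliv*. In *ddm1* heat replicates 1 to 4 *HSP18.2* had 138790, 118080, 376100 and 451480 and *HSP22-ER* 60588, 60402, 149720 and 183100. The wt heat libraries did not show this split for these genes. There *HSP18.2* had 54544, 61442, 169050 and 49967 and *HSP22-ER* 37366, 50415, 71399 and 38372, with replicate 3 alone the highest. What sets these replicates apart was not tested. The deposited cell type tag of the seedling samples names inflorescence meristems, so 12 floral organ markers were checked: their summed normalized counts were 7.51 to 23.9 in heat-stressed and 32.1 to 59.6 in control *poliv* seedlings, against 5151.5 to 5886.5 in the 4 control *poliv* inflorescence libraries. Root markers summed to at most 12.3 under heat and 70.0 in control, and the stem cell genes *CLV3* and *WUS* were at or near 0. *NRPD1*, the mutated gene, still gave reads, with 8.93, 6.68, 5.8 and 14.1 normalized counts under heat and 7.78, 17.61 and 11.3 in control (−0.43, adjusted p = 0.475), and where these reads lie relative to the insertion was not examined. The reporter had at most 5.80 normalized counts in any of the 7 libraries.

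Heat changed the level of nearly as many genes as it left uncalled. With limma on log2(normalized count + 1), 3556 of 16831 genes (21.1%) were called higher and 4628 (27.5%) lower under heat (Benjamini-Hochberg adjusted p below 0.05, adjusted over all features tested, and at least a 2-fold change on that scale). Among the called genes the median change was 1.94 for those higher and −2.21 for those lower, 236 were over 32-fold higher and 269 over 32-fold lower. For 7816 of the 8184 called genes every heat library lay on the same side of every control library. Such a separation was common: among all 16831 genes tested, 4198 had every heat library above every control library and 5390 had every one below. The calls rest on the same libraries, so the separation is no added evidence for them. The median of all genes was −0.15 with the deposited size factors and 0.06 with TMM scaling, so log2 changes are relative to a zero point that moves by about 0.2 with the scaling.

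Small heat shock proteins led the rise. They are chaperones that hold unfolding proteins in solution. Of the 11 cytosolic or nuclear members 10 rose and 1 fell, with a median log2 change of 11.50, and all 7 members sent to chloroplast, mitochondria, endoplasmic reticulum or peroxisome rose, with a median of 8.28. The gene with the largest change was *HSP17.4-CI* (AT3G46230, chromosome 3, 16984118 to 16984867 in the RefSeq TAIR10.1 assembly), a class I cytosolic protein. It had 90835, 111020, 179010 and 113000 normalized counts in heat replicates 1 to 4 and 1.56, 0 and 55.3 in control replicates 1, 3 and 4, a log2 change of 14.48 ± 1.33 (SE; limma adjusted p = 0.000172). The groups were far apart, and control replicate 4 carried a trace of this and of several other small heat shock transcripts that the other control libraries nearly lacked. *HSP17.6C-CI*, of the same class, had 22689, 18276, 30007 and 30710 under heat and 0, 0 and 4.25 in control (13.80 ± 0.56, adjusted p = 1.34e-07). *HSP17.8-CI* showed the steadiest controls, with 10751, 12032, 18333 and 14224 under heat against 6.23, 6.22 and 5.67 in control (10.91 ± 0.26, adjusted p = 2.85e-10).

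Promoters of 4 strongly induced genes are shown as examples that carry the element bound by heat shock factors, which was not general in the family. The searched letters were GAANNTTC or TTCNNGAA for 2 units and GAANNTTCNNGAA or TTCNNGAANNTTC for 3 units, on both strands, in the 300 bases before each annotated start. The sequences below are the last 150 bases before the start in RefSeq TAIR10.1, written 5′ to 3′ on the strand of the gene, with matches in capitals. They are *HSP17.4-CI* (chr3:16984868-16985017, minus strand), *HSP17.6C-CI* (chr1:19980149-19980298, plus strand), the cytosolic ascorbate peroxidase gene *APX2* (chr3:2956006-2956155, plus strand) and the heat shock factor gene *HSFA2* (chr2:11135474-11135623, plus strand).
HSP17.4-CI: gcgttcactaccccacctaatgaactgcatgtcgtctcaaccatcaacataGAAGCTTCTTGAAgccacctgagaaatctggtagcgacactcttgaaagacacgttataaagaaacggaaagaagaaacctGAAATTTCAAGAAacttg
HSP17.6C-CI: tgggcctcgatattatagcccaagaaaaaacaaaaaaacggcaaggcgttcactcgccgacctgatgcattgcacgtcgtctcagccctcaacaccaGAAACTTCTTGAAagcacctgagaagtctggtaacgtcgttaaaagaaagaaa
APX2: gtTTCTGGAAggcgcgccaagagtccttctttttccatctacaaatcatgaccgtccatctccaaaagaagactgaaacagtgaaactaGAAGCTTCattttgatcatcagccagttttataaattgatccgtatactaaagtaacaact
HSFA2: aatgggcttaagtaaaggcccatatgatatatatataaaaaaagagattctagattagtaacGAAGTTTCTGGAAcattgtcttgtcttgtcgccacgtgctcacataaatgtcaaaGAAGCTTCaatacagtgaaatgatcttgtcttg
The 3-unit element was in 7 of 235 promoters of genes over 32-fold higher (2.98%), in 30 of 3547 promoters of all genes called higher (0.846%), in 11 of 4620 of genes called lower (0.238%) and in 89 of all 16768 promoters searched (0.531%). Of the 11 cytosolic small heat shock promoters 2 held the 3-unit element and 3 the 2-unit element, and of the 7 organellar ones 0 and 4. The 7 genes over 32-fold higher were *HSP17.6C-CI*, AT1G71000, *HSFA2*, *GOLS1*, *HSP17.4-CI*, *DREB2A* and *HSP90.1*. The shorter 2-unit element was common everywhere, in 54 of the 235 promoters of genes over 32-fold higher and in 19.0% of all. A match is a run of letters and not a shown binding site. *HSFA7A*, for another heat shock factor, holds the 3-unit element too, and had 8.25, 16.3, 23.9 and 16.9 normalized counts under heat against 7.78, 15.5 and 31.2 in control.

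Other small heat shock genes differed more among heat libraries. *HSP18.2* (class I) had 68280, 34654, 156350 and 303920 normalized counts under heat and 1.56, 1.04 and 56.7 in control. *HSP22-ER*, of the endoplasmic reticulum, had 29334, 32031, 125240 and 133420 under heat and 1.56, 0 and 34 in control. In both genes heat replicates 3 and 4 were at least 2 times as high as replicates 1 and 2, although every heat library was far above every control library. By contrast the class II gene *HSP17.6-CII* was even under heat, with 76690, 72716, 68465 and 76446 under heat and 0, 1.04 and 36.9 in control. The chloroplast protein gene *HSP21* had 38584, 33993, 56927 and 85835 under heat and 0, 0 and 41.1 in control. The exception in direction was *HSP15.4*, which fell to 13.1, 17.81, 10.2 and 6.57 under heat, against 635, 527 and 471 in control (−5.47 ± 0.33, adjusted p = 1.8e-07). All small heat shock genes together took 5.30% ± 1.48 of the reads under heat (SD, n = 4) and 0.00479% ± 0.000302 in control (SD, n = 3), a difference with p = 0.0286 in an exact two-sided permutation test, which is the smallest p that 4 against 3 libraries allow (0.0449 after Benjamini-Hochberg adjustment over 11 read shares). How reads that match several genes were counted is not given in the sources used here, so the split between near-identical class I genes is uncertain.

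**Figure D1:**
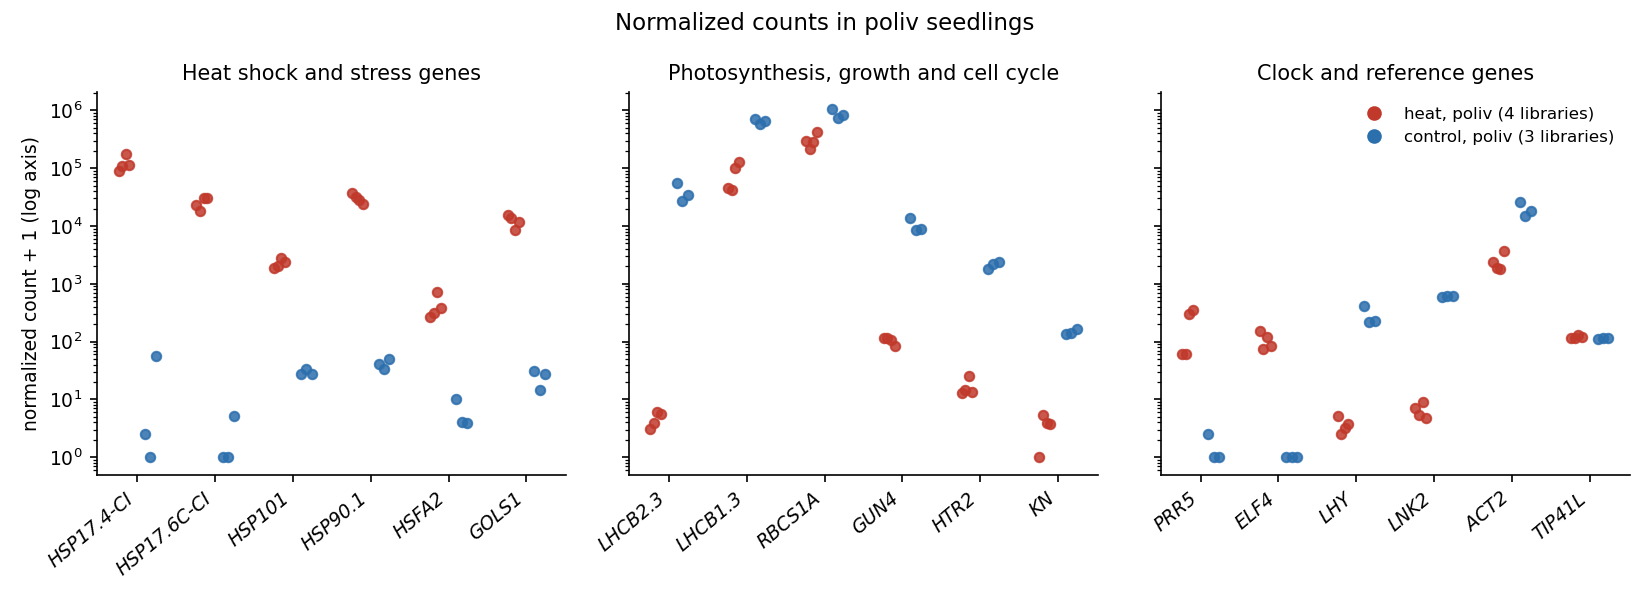
Normalized count + 1 (log axis) of 18 genes in each *poliv* seedling library, heat (4 libraries) left of control (3 libraries), with heat shock and chaperone genes, photosynthesis and division genes, and clock and reference genes in separate panels. *HSP17.4-CI* lies between 90835 and 179010 under heat and at most at 55.3 in control, *LHCB2.3* shows the reverse order, and *TIP41L* overlaps between the groups.

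The ATP-driven chaperones rose as well, by smaller factors on average. All 9 HSP90 and HSP100 genes and 12 of 13 HSP70 genes were called higher, with medians of 3.03 and 2.92. *HSP101*, for the disaggregase behind acquired thermotolerance, had 1895, 2035, 2852 and 2433 normalized counts under heat and 26.46, 32.1 and 26.9 in control (6.27 ± 0.25, adjusted p = 7.31e-09). *HSP90.1*, the inducible cytosolic HSP90, had 37459, 31300, 27705 and 23900 under heat and 40.5, 32.1 and 48.2 in control (9.51 ± 0.28). The inducible *HSP70-4* had 67407, 68944, 88130 and 79217 under heat and 305, 175 and 92.2 in control (8.78 ± 0.38). For each of the 3 genes the lowest heat library was over 50 times as high as the highest control library. The constitutive *HSC70-1* had many reads in both groups, with 59530, 66000, 64200 and 94780 under heat and 51400, 42350 and 40250 in control, and was not called (0.65, adjusted p = 0.105).

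Co-chaperones and genes of heat memory followed, with 17 of 22 called higher, 2 lower and a median of 3.52 (3.39 with the 1 gene without control reads set at its lower bound). *ROF2*, an immunophilin that binds HSP90, had 57610, 51155, 37141 and 44250 normalized counts under heat and 35.8, 13.5 and 41.1 in control (10.70 ± 0.37, adjusted p = 3.34e-09). *HSA32*, which prolongs acquired thermotolerance, had 3936, 3629, 7267 and 8355 under heat and 21.8, 20.7 and 42.5 in control (7.61 ± 0.37). The HSP70-HSP90 organizing protein gene *HOP3* had 4886, 5810, 5086 and 4493 under heat and 20.23, 20.7 and 11.3 in control (8.14 ± 0.27). The 2 members that fell were *P23-1*, for an HSP90 cofactor (−1.23, adjusted p = 0.0138), and *BAG7*, for a chaperone regulator of the endoplasmic reticulum (−1.29, adjusted p = 0.00204).

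Among the heat shock transcription factors 10 of 17 tested members were called higher and 1 lower, with a median of 1.68 (1.32 with *HSFA7B*, which had no control reads, at its bound), and 4 more members were below the count minimum. *HSFA2*, which sustains the response, had 270.1, 309, 714 and 387 normalized counts under heat and 9.34, 3.11 and 2.84 in control (6.16 ± 0.42, adjusted p = 5.55e-07). *HSFA3*, a factor downstream of DREB2 proteins, had 559, 374, 581 and 968 under heat and 17.1, 7.25 and 12.8 in control (5.53 ± 0.36). The repressor gene *HSFB1* had 462, 400.0, 384 and 206 under heat and 32.7, 23.8 and 0 in control (5.21 ± 1.25, adjusted p = 0.0123). In all 3 genes the groups did not overlap. *HSFA1E* and *HSFA8* were called higher but uneven. *HSFA1E* had 28.9, 26.7, 135 and 97.7 normalized counts under heat and 3.11, 5.18 and 2.84 in control. *HSFA8* had 31.6, 38.6, 105 and 109 under heat and 1.56, 1.04 and 0 in control, with replicates 3 and 4 again above replicates 1 and 2 in the heat group. *HSFB4* was the member that fell (−1.62, adjusted p = 0.0218), and *HSFA1A*, a master activator whose protein is switched on by heat, was not called (0.20, adjusted p = 0.706).

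Of 20 tested genes of the DREB2 branch, of galactinol synthesis and of abscisic acid or dehydration responses, 12 were called higher, 2 lower and 6 not, with a median of 2.50 that ran from 1.36 to 5.28 over the alternatives. DREB2 factors link heat to dehydration responses. *DREB2C* had 331, 255, 645 and 639 normalized counts under heat and 0 in each control library, at least 116.6-fold higher when the control floor is set at 3 reads per library. *GOLS1*, for the galactinol synthase of osmoprotectant synthesis, had 15757, 13901, 8428 and 11830 under heat and 29.6, 13.5 and 26.9 in control (9.04 ± 0.33, adjusted p = 5e-09). The cold and dehydration gene *KIN1* had 7285, 5881, 5769 and 14760 under heat and 18.7, 18.6 and 18.4 in control (8.63 ± 0.33). *RD29A*, a dehydration gene, was higher in heat replicates 3 and 4 than in replicates 1 and 2, with 272, 224, 1397 and 1194 under heat and 24.9, 21.8 and 4.25 in control (5.28 ± 0.88, adjusted p = 0.00203). The members that fell were *RD22* (−4.83), a dehydration gene, and *HAB1* (−1.21), for a phosphatase that restrains abscisic acid signalling. Folding genes of the endoplasmic reticulum rose in 14 of 17 cases and fell in none, with a median of 2.304. The luminal HSP70 gene *BIP2* had 7548, 6510, 15660 and 19770 under heat and 468, 685 and 627 in control (4.24 ± 0.40), and *BIP1*, a near copy, shares most of its sequence, so their split is uncertain. The stress factor gene *BZIP60* had 153, 174, 1484 and 713 under heat and 157, 78.7 and 111 in control and was not called (1.88, adjusted p = 0.0942).

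Beyond the lists, the rule for named genes (the 15 largest changes each way among well-expressed genes with groups that do not overlap) picked *APX2*, for a cytosolic ascorbate peroxidase that removes hydrogen peroxide. It is also a member of the reactive oxygen list. It had 9144, 8334, 11630 and 16881 normalized counts under heat and 0, 0 and 12.8 in control (12.17 ± 0.95, adjusted p = 5.39e-05). AT4G33930, annotated as a cupredoxin family gene, had 3349, 2989.8, 16062 and 18371 under heat and 0 in each control library, at least 2541.5-fold higher by the same floor. AT2G07739, annotated as *ycf1*-like, had 2952, 2721, 1886 and 955 under heat and no control reads, at least 530.7-fold higher, and the pseudogene AT2G07731 had 4646, 4777, 12678 and 5462 under heat and 1.56, 5.18 and 7.09 in control. The last 2 lie in the stretch of chromosome 2 that copies the mitochondrial genome, where reads from the organelle and from the nucleus cannot be told apart.

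**Figure D2:**
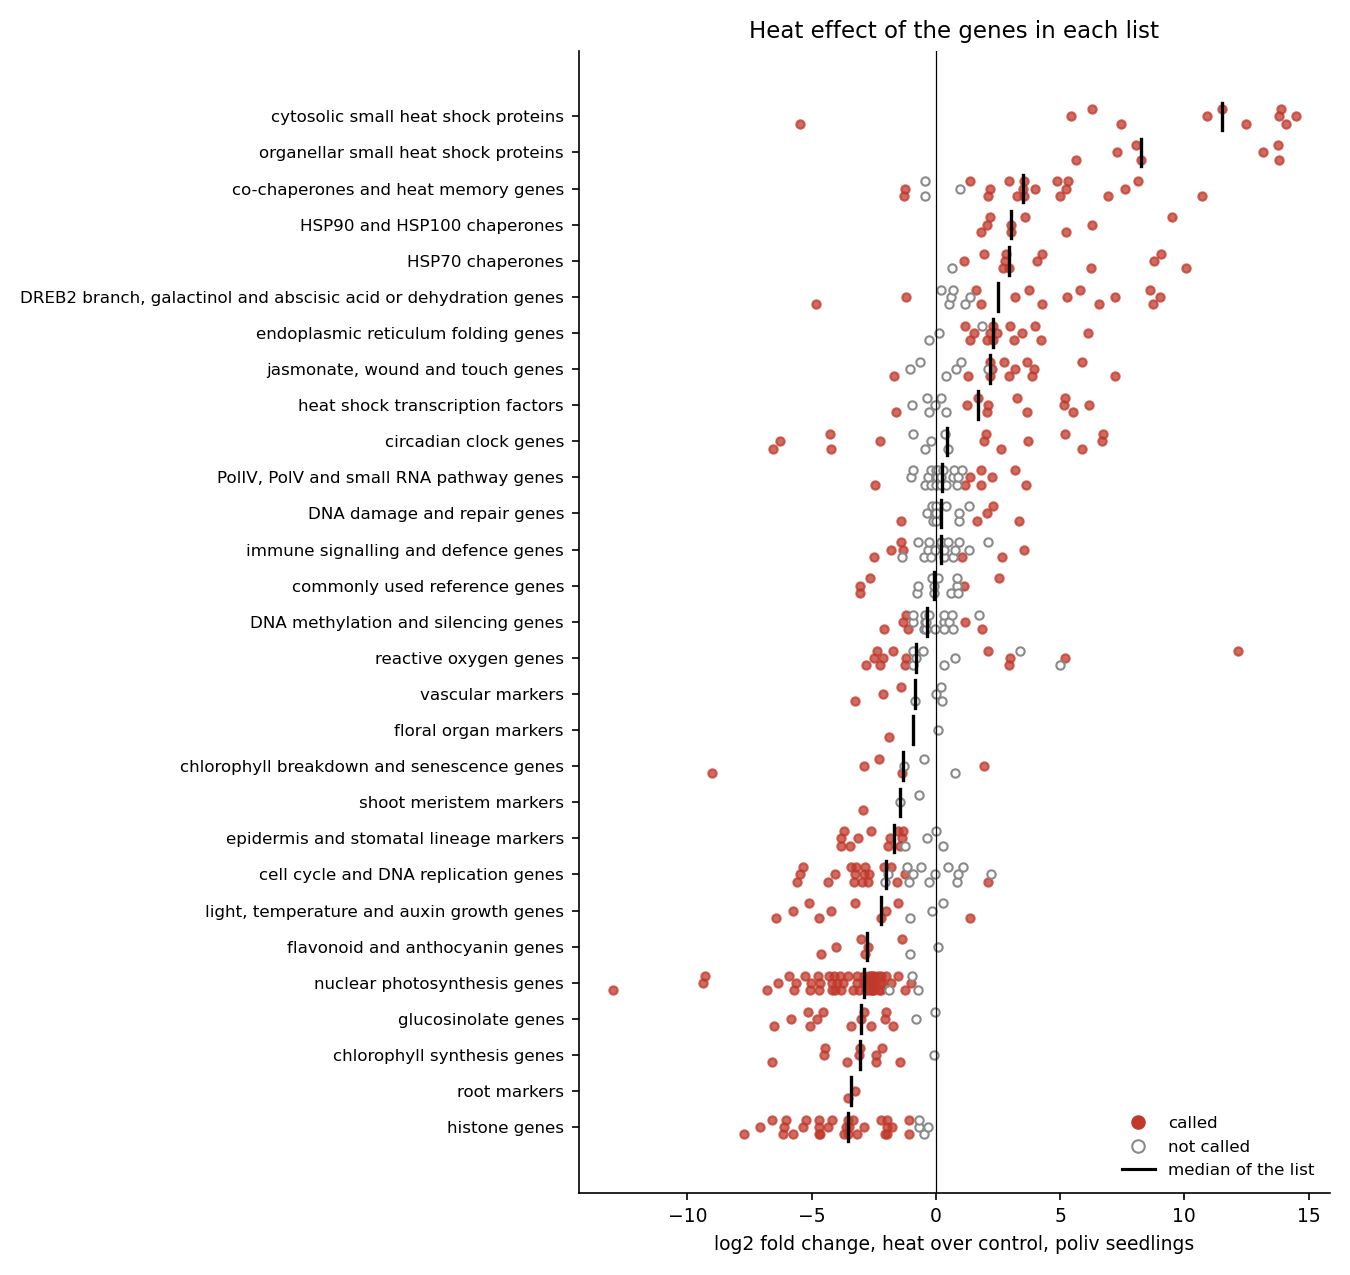
Log2 change, heat over control in *poliv* seedlings, of every tested gene of the gene lists, 1 row per list, with filled red points for called genes, open grey points for genes not called and a black bar at the list median. The small heat shock lists reach 14.48, while photosynthesis genes run down to −13.01 around a median of −2.88.

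Genes of the photosynthetic apparatus fell almost as a block. Of 58 nuclear genes for light-harvesting proteins, photosystem subunits and carbon fixation enzymes, 55 were called lower and none higher, with a median of −2.88, and the exceptions were *FNR1* (−0.70, adjusted p = 0.0703), *PETE2* (−0.98, adjusted p = 0.0361) and *LHCB4.3* (−1.90, adjusted p = 0.0643). *LHCB2.3* (AT3G27690, chromosome 3, 10255906 to 10257489), an antenna protein of photosystem II, had the largest fall of any gene. It had 2.06, 2.97, 5.07 and 4.69 normalized counts under heat and 56121, 26801 and 34631 in control (−13.01 ± 0.33, adjusted p = 4.49e-10). Its relatives *LHCB2.1* and *LHCB2.2*, near copies of each other whose split is uncertain, fell by 9.39 and 9.29 on the log2 scale. *LHCB2.1* had 200.7, 236, 423 and 434 under heat against 237120, 178470 and 205250 in control. Other antenna genes fell less: *LHCB1.3* had 46382, 42644, 101350 and 129430 under heat and 710040, 588850 and 645320 in control (−3.18 ± 0.45). *RBCS1A*, for a small subunit of Rubisco, had 297590, 215960, 286810 and 431650 under heat and 1045200, 743410 and 829260 in control (−1.53 ± 0.38, adjusted p = 0.00497). Members of 1 family of antenna proteins thus fell by very different factors.

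The nuclear photosynthesis genes together took 12.5% ± 3.33 of the reads under heat (SD, n = 4; 9.59% to 16.9%) and 43.7% ± 1.41 in control (SD, n = 3; 42.7% to 45.3%), with p = 0.0286 in the exact permutation test (adjusted 0.0449 over 11 shares). In whole seedlings, fewer cells of a type and less RNA per cell cannot be told apart. Heat libraries were not alike here. *LHCB6*, of the inner antenna, had 4732, 4196, 26470 and 29400 normalized counts under heat and 173000, 148700 and 164400 in control (−3.86 ± 0.72, adjusted p = 0.00161), with heat replicates 3 and 4 above replicates 1 and 2 and below every control library.

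Chlorophyll synthesis genes fell in 10 of 11 cases, with a median of −3.04. *GUN4*, a regulator of magnesium chelatase, had 115, 114, 107 and 82.6 normalized counts under heat and 13595, 8665 and 8796 in control (−6.59 ± 0.27, adjusted p = 9.89e-09). *HEMA1*, for the enzyme that opens tetrapyrrole synthesis, had 232, 233, 365 and 641 under heat and 11910, 1960 and 2860 in control (−3.59 ± 0.62). Only *PORC*, for a protochlorophyllide reductase, was not called (−0.08, adjusted p = 0.918). Of 8 tested genes of chlorophyll breakdown and senescence, *PPH*, for pheophytinase, rose (1.93, adjusted p = 0.000663) and 4 fell. The dark-induced *SEN1* was the extreme, at 21.3, 23, 9.42 and 16 under heat against 7216, 11259 and 9416 in control, and the late senescence marker *SAG12* was at 0 in all 7 libraries.

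Other genes with the largest falls included genes of growth and of primary metabolism. *GASA6*, a gibberellin-regulated gene, had 2.06, 3.71, 5.07 and 3.76 normalized counts under heat and 2591, 7424 and 8640.3 in control (−10.25 ± 0.41, adjusted p = 1.02e-08). *EXPA8*, for a wall-loosening expansin, had 0, 0, 0 and 0.939 under heat and 492, 596 and 546 in control (−8.85 ± 0.39). *GLDP1*, for the P-protein of glycine decarboxylase in photorespiration, had 68, 102, 51.5 and 59.2 under heat and 25416, 17079 and 19236 in control (−8.20 ± 0.29). In each of the 3 genes the lowest control library was over 100 times as high as the highest heat library. AT1G17990, for an FMN-linked oxidoreductase, had no reads in any heat library and 411, 578 and 465 normalized counts in control, at least 208.93-fold lower, and the lipid-transfer protein gene AT5G48490 had 0, 0, 1.45 and 0 under heat against 1909.7, 1534 and 1431 in control (−10.33 ± 0.39). *KDR*, for a small helix-loop-helix protein, had 0, 2.23, 0 and 0 under heat and 434, 732 and 1059 in control (−9.02 ± 0.50), and *ELP*, for an extensin-like wall protein, had 109, 129, 211 and 208 under heat and 42405, 41125 and 43586 in control (−8.06 ± 0.30).

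Histone genes and genes of the cell cycle fell together. Of 35 tested histone genes 31 were called lower and none higher, with a median of −3.54. *HTR2*, a replication-coupled H3.1 gene, had 11.7, 13.4, 23.9 and 12.2 normalized counts under heat and 1804, 2217 and 2431 in control (−7.09 ± 0.29, adjusted p = 9.25e-09). The H3.3 gene *HTR5*, expressed outside S phase, had 3179, 3503, 9408 and 6668 under heat and 6518, 9195 and 9307 in control and was not called (−0.68, adjusted p = 0.17), and neither were *HTB4*, *HTA8* and *HTA9*, the last 2 for the H2A.Z variant. Among 32 cell cycle and replication genes 18 fell, 1 rose and 13 were not called, with a median of −1.99. *KN*, for the syntaxin of the dividing cell's plate, had 0, 4.45, 2.9 and 2.82 under heat and 132, 139 and 162 in control (−5.59 ± 0.55). *TSO2*, for the small subunit of ribonucleotide reductase, had 85.9, 52.7, 26.8 and 33.8 under heat and 666, 724 and 942 in control (−4.06 ± 0.36). The member that rose was the D-type cyclin gene *CYCD3;3* (544, 370.3, 335 and 514 under heat against 91.8, 87 and 123 in control, 2.105 ± 0.27). Letters AACGG, the core of the mitosis-specific activator element, were in 17 of 35 histone promoters (48.6%) and in 25.3% of all promoters searched. They were in 13 of 32 cell cycle promoters (40.6%), but also in 5 of 11 cytosolic small heat shock promoters (45.5%). Among all genes called higher the share was 27.6%, and among those called lower 24.3%, so the letters did not mark falling genes in general.

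Markers of some cell types moved with these groups. Of 16 epidermis and stomatal lineage markers 12 fell and none rose, with a median of −1.68, among them the outer layer gene *PDF1* and its regulator gene *ATML1* (−3.15). *PDF1* had 1878, 2890, 589 and 560.5 normalized counts under heat and 16910, 15570 and 16110 in control (−3.81 ± 0.55, adjusted p = 0.000256). Of 7 vascular markers 3 fell, including the companion cell sucrose carrier gene *SUC2* (−3.25), whereas the xylem protease gene *XCP2* (0.25, adjusted p = 0.467) and the phloem factor gene *APL* (−0.01, adjusted p = 0.982) were not called. The part of cell composition in the changes above was not tested.

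Growth regulators of light and temperature also fell, in 9 of 13 cases, while 1 rose (median −2.20). *PIF4*, which drives elongation at mild warmth, had 11, 12.6, 16.7 and 7.51 normalized counts under heat and 461, 286 and 265 in control (−4.71 ± 0.33, adjusted p = 5.7e-07). The auxin response gene *IAA29* had 0 in each heat library and 32.7, 158 and 116 in control, at least 44.2-fold lower. *PIF7* was the member that rose (1.37, adjusted p = 0.000635). The cell wall gene *XTR7* fell (−5.77, adjusted p = 0.0103), with 13.7, 22.3, 66.7 and 52.6 under heat and 196, 6297 and 4860 in control, where replicate 1 stood far below the other controls.

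Clock genes were called in both directions. In Arabidopsis, *CCA1* and *LHY* peak at dawn and repress evening genes such as *TOC1*, *ELF4*, *LUX* and *GI*, through the evening element AAAATATCT. Of 18 clock genes 8 were higher and 5 lower under heat: *ELF4*, *PRR5*, *FKF1*, *LUX*, *PRR3*, *GI*, *TOC1* and *ELF3* rose, and *LNK2*, *LHY*, *CCA1*, *RVE8* and *RVE4* fell, while *RVE1*, *PRR7*, *PRR9*, *ZTL* and *LNK1* were not called. *LHY* had 4.12, 1.48, 2.17 and 2.82 normalized counts under heat and 416, 217 and 229.7 in control (−6.29 ± 0.39, adjusted p = 2.25e-07). *LNK2*, a coactivator of RVE factors, had 6.19, 4.45, 7.97 and 3.76 under heat and 593, 623 and 613 in control (−6.58 ± 0.30). *ELF4*, of the evening complex, had 154, 73.5, 121 and 83.6 under heat and 0 in each control library, at least 26.9-fold higher. *PRR5* had 59.1, 60.9, 300.1 and 350.2 under heat and 1.56, 0 and 0 in control (6.69 ± 0.71), with heat replicates 3 and 4 about 5 times above replicates 1 and 2. The time of day of harvest is not given in the sources used here, so a shift in clock time and an effect on single genes cannot be told apart.

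The evening element was in the promoters of 4 of the 18 clock genes (*FKF1*, *LUX*, *PRR5* and *TOC1*, all called higher), in 21 of 235 genes over 32-fold higher (8.94%), in 4.34% of all genes called higher, in 2.19% of genes called lower and in 3.01% of all genes searched. *PRR5* holds 2 copies, read on the opposite strand as AGATATTTT, and its 300 bases before the start are shown with both in capitals (chr5:8358547-8358846, minus strand, RefSeq TAIR10.1, 5′ to 3′ on the strand of the gene).
PRR5: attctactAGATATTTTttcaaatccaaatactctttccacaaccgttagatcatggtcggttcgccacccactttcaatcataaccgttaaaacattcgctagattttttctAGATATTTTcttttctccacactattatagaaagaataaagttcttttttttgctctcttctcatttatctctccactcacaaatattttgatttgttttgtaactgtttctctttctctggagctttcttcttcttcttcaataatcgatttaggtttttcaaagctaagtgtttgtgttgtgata
The nearer copy ends 178 bases before the start. Among the 21 strongly induced genes with the element were also *HSFA3* and *HSFA8*, which are described above, and *DREB2A* (log2 change 5.82).

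Stress and hormone genes gave a mixed picture in which single libraries mattered. Of 19 tested jasmonate, wound and touch genes 12 were called higher and 1 lower, with a median of 2.19. The vegetative storage protein gene *VSP2*, a jasmonate target, had 177, 309, 2047 and 901 normalized counts under heat and 1.56, 3.11 and 4.25 in control (7.21 ± 0.81, adjusted p = 0.000193). *AOC2*, for an enzyme of jasmonate synthesis, had 5213, 5151, 2677 and 4256 under heat and 280.2, 262 and 258 in control (3.97 ± 0.29). The list member that fell, *AOC1* (−1.71, adjusted p = 0.000468), is a close copy of *AOC2*, so their split is uncertain. The touch genes *TCH2*, *TCH3* and *TCH4* were not called. *TCH4* had 1363, 1272, 10032 and 14109 under heat and 3326, 546 and 434 in control (2.098, adjusted p = 0.181). *TCH3* had 590.3, 393, 1318 and 3179 under heat and 4262, 1263 and 1549.9 in control (−1.03, adjusted p = 0.281). Control replicate 1 was the highest control in both, and heat replicates 3 and 4 were the highest heat libraries. Without heat replicate 4, *TCH3* was called lower (−1.59; adjusted p = 0.0415).

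Of 21 genes that handle reactive oxygen, 5 rose and 8 fell (median −0.80). Among all genes tested 21.1% were called higher and 27.5% lower, so the share that rose was near that of all genes. *AOX1A*, for the alternative oxidase of mitochondria, had 256, 206, 1662 and 2069 normalized counts under heat and 101, 13.5 and 2.84 in control (5.20 ± 1.38, adjusted p = 0.0188), and without control replicate 3 the call was lost (5.05, adjusted p = 0.0618). *APX1* rose (2.94) and the catalase genes *CAT2* and *CAT3* fell (−2.38 and −2.49). The stress factor gene *ZAT12* had 192, 233, 1503 and 962 under heat and 332, 4.14 and 1.42 in control and was not called (4.98, adjusted p = 0.0627), control replicate 1 lying within the heat range. Of 23 tested immune genes 3 rose, 4 fell and 16 were not called (median 0.19), with 1 to 7 higher over the alternatives. In the main fit both shares were below those of all genes. The salicylic acid marker *PR1* was at 0 in all 7 libraries.

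Genes of defence and pigment metabolites fell. Of 15 tested glucosinolate genes 13 were called lower and none higher, with a median of −3.01. *MAM1*, for the chain-elongating enzyme of aliphatic glucosinolates, had 6.19, 5.19, 2.9 and 0.939 normalized counts under heat and 451, 352 and 387 in control (−6.53 ± 0.44, adjusted p = 4.2e-07). Of 8 tested flavonoid genes 6 fell and none rose (median −2.78, and −3.30 to −1.36 over the alternatives), including *CHS*, for chalcone synthase, with 243, 194, 638 and 509.8 under heat and 6445, 1291 and 1523 in control. *DFR*, for the anthocyanin enzyme, had no reads in any heat library and 14, 25.9 and 36.9 in control, at least 11.03-fold lower.

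Genes of the silencing machinery, of which PolIV is a part, were mostly not called. Of 28 tested genes for PolIV, PolV and small RNAs 7 rose and 1 fell (median 0.25), and 20 were not called. The count of those higher ran from 2 to 7 over the alternatives and is a share near the 21.1% of all genes. *CLSY3*, for a remodeler that recruits PolIV in reproductive tissue, had 16.5, 5.19, 14.5 and 12.2 normalized counts under heat and none in control, at least 3.02-fold higher. *AGO6* rose, with 13.7, 29.7, 39.9 and 18.8 under heat against 0, 2.07 and 5.67 in control (3.17 ± 0.66), while *AGO4*, the main effector of RNA-directed DNA methylation, fell to 25.4, 33.4, 9.42 and 10.3 under heat, against 77.8, 106 and 116 in control (−2.46 ± 0.44, adjusted p = 0.000606). Of 22 tested genes of DNA methylation and silencing 2 rose and 4 fell (median −0.34). Both shares were below those of all genes (21.1% higher and 27.5% lower). *MET1*, which copies CG methylation behind the replication fork, had 33.7, 27.5, 20.3 and 24.4 under heat and 121, 116 and 102 in control (−2.07 ± 0.27, adjusted p = 7.27e-05), and *DDM1* was not called (0.32, adjusted p = 0.543). Of 16 DNA damage genes 4 rose and 1 fell (1 to 5 higher over the alternatives), a share near that of all genes for those higher, with the cell cycle inhibitor gene *SMR5* and the checkpoint gene *RAD17* among those higher.

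Of 15 genes often used to scale expression, 2 rose, 3 fell and 10 were not called (median −0.06). Among all genes tested 21.1% were called higher and 27.5% lower, so these genes were not called more often than others. Those that fell included *ACT2* (2398, 1892, 1817 and 3714 normalized counts under heat against 26414, 15214 and 18285 in control, −3.05 ± 0.34) and the ubiquitin-conjugating enzyme gene *UBC9* (−3.05 ± 0.29). *TIP41L* had 113, 114, 127 and 121 under heat and 109, 113 and 113 in control, overlapping ranges (0.09 ± 0.22, adjusted p = 0.763).

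Transcripts of the mitochondrial genome took a larger share of the reads after heat. The share was 9.33% ± 1.48 under heat (SD, n = 4; 7.25% to 10.7%) and 0.794% ± 0.322 in control (SD, n = 3; 0.494% to 1.13%), with exact permutation p = 0.0286 (adjusted 0.0449). Of 94 mitochondrial genes tested 91 were called higher and none lower (median 6.11), and in the mitochondrial copy on chromosome 2 it was 62 of 63 (median 6.02). Chloroplast genes went another way: 3 of 101 were called higher and 33 lower (median −1.31), and their share was 5.58% ± 3.65 under heat and 5.71% ± 3.15 in control (SD, n = 4 and 3; exact permutation p = 0.943). Both organelles together took 14.9% ± 3.97 under heat and 6.51% ± 3.45 in control (SD, n = 4 and 3; exact permutation p = 0.0571, adjusted 0.0786). In wt heat libraries the mitochondrial share averaged 9.15% ± 1.22 (SD, n = 4), with exact permutation p = 0.857 for *poliv* against wt.

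**Figure D3:**
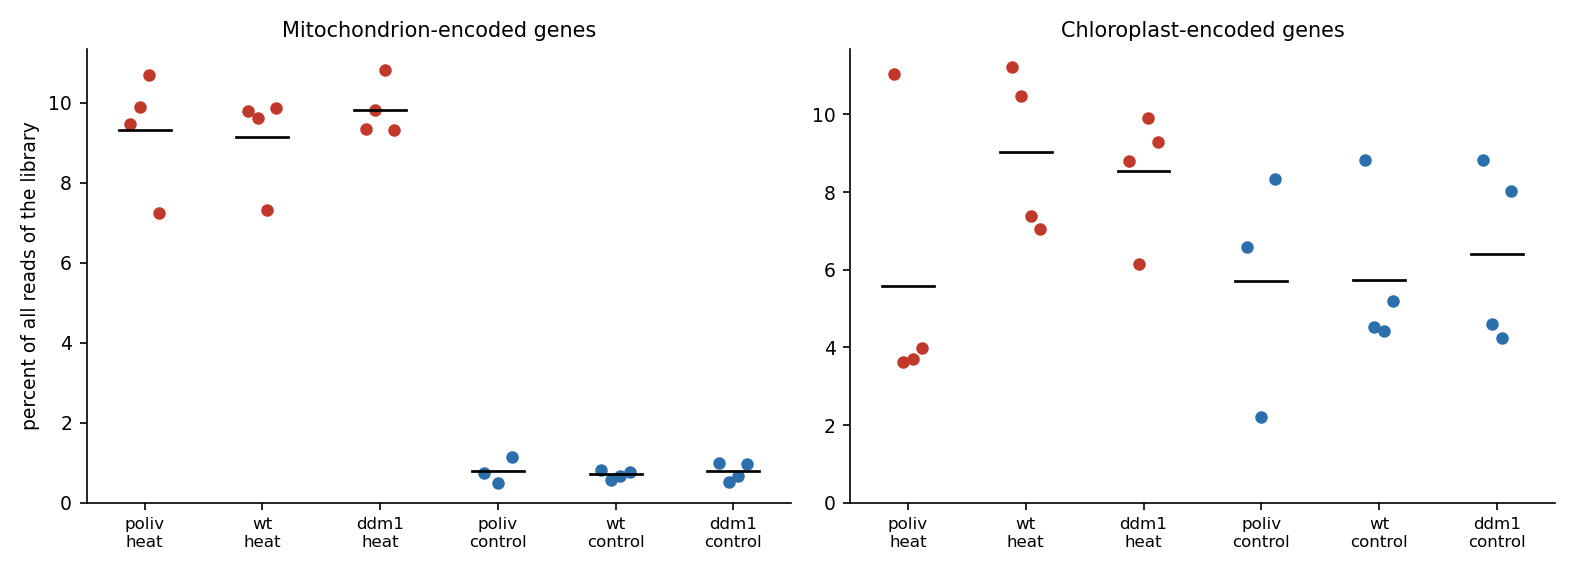
Percent of all reads on genes of the mitochondrial genome (left) and of the chloroplast genome (right) in each seedling library, with heat groups of *poliv*, wt and *ddm1* left of their controls and a line at each group mean. Mitochondrial shares are 7.25% to 10.7% in heat-stressed *poliv* seedlings and 0.494% to 1.13% in their controls, while chloroplast shares overlap.

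Among TEs, 173 of 352 tested TEs (49.1%) were called higher and 43 (12.2%) lower. Most drew few reads: the median heat level of the 173 was 30.2 normalized counts and 130 were under 100, but 88 had no reads in any control library and 11 reached at least 1000. The 8 *ONSEN* copies carried 95.8% of the TE reads under heat and 0.184% in control. AT1TE12295 had the most reads, with 201560, 138880, 181370 and 167570 normalized counts under heat and 0, 3.11 and 0 in control (16.70 ± 0.46). AT1TE71045 had 118430, 78458, 113700 and 117080 under heat and 0 in each control library, at least 26660-fold higher. AT3TE92525 had 180190, 135890, 170310 and 160780 under heat and 0, 0 and 44 in control (15.47 ± 1.37). Every heat library was thus over 1000 times as high as any control library in these copies. The other copies were AT5TE15240 with a heat mean of 138650, AT1TE59755 with 105610, AT3TE89830 with 36976, AT3TE54550 with 10550 and AT1TE24850 with 8779, and all 8 were called higher. Copies share most of their sequence, so their split is uncertain and their sum is the safer measure.

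All TEs together took 6.63% ± 0.913 of the reads under heat and 0.158% ± 0.0192 in control (SD, n = 4 and 3; exact permutation p = 0.0286, adjusted 0.0449). *ONSEN* made up 6.34% ± 0.859 under heat (SD, n = 4; 5.12% to 7.004%) and 0.000286% ± 0.000426 in control (SD, n = 3), where replicate 4 held most of it (5.98e-05%, 2.01e-05% and 0.000777% in control replicates 1, 3 and 4), with exact permutation p = 0.0286 (adjusted 0.0449). TEs other than *ONSEN* made up 0.288% ± 0.111 under heat and 0.157% ± 0.0189 in control (SD, n = 4 and 3; exact permutation p = 0.143). Among those, 2 copies of the *ATGP10* family rose most. AT5TE45060 had 4253, 4328, 1595 and 2003 normalized counts under heat and 0, 0 and 2.84 in control, and AT2TE15415 had 5282, 6176, 1650 and 2183 under heat and 0, 0 and 8.51 in control, both higher in replicates 1 and 2.

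The TEs named as falling most were picked among those with every control library above every heat library, so reads in each *poliv* control library follow from that rule. AT4TE54820 had 5.5, 8.9, 9.42 and 14.1 normalized counts under heat and 605, 1224 and 2164 in control (−6.87 ± 0.42), and wt controls held it as well, at 236 to 1474. AT4TE09845 had 1.37, 2.97, 2.17 and 0 under heat and 576, 369 and 398 in control (−7.56 ± 0.47), but 0 in each wt control library. The neighbouring IDs AT5TE48715, AT5TE48720 and AT5TE48725 all fell. AT5TE48720 had 2.75, 0, 0 and 0 under heat and 195, 139 and 155 in control, against 0 to 12.6 in wt controls and 347 to 1093 in *ddm1* controls.

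The heat effects of *poliv* and wt seedlings were correlated across genes (Pearson r = 0.921 over the 16408 genes tested in both). Counts of calls do not measure likeness, and with so few libraries a difference that was not called is not shown to be absent. Of the 3556 genes higher in *poliv*, 2563 were called higher in wt by its own test, 876 were not called and 117 not tested there; of the 4628 lower, 3713 were called lower in wt, 856 not called and 59 not tested. A call in only one genotype is no difference by itself, and the test of the difference called 6 of 16945 genes (0.0354%) and 3 of 349 TEs (0.86%), in either direction, with 1708 genes and 55 TEs at an unadjusted p below 0.05. By edgeR's quasi-likelihood test on the recovered reads it called 0 genes (1686 at an unadjusted p below 0.05) and 0 TEs (27 at an unadjusted p below 0.05). No member of any list differed by that test, although some list medians were apart: jasmonate, wound and touch genes had a median of 2.19 in *poliv* and 0.62 in wt, with 12 against 4 called higher, and heat shock factors 1.68 against 0.67. These differences between lists were not tested.

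AT1TE71045, an *ONSEN* copy, had no read in any control of either genotype, so its difference lies in the heat libraries. It had 118430, 78458, 113700 and 117080 normalized counts in *poliv* heat libraries and 9276, 7252, 13057 and 10478 in wt heat libraries, a difference of heat effects of 3.43 (95% interval 2.79 to 4.06; limma adjusted p = 2.11e-05). The heat effect of the remaining 7 copies was not called different. It was larger in *poliv* for 6 of them and smaller for AT1TE59755 (−1.05, adjusted p = 0.852), which had 7.78, 0 and 62.4 normalized counts in *poliv* controls and 0, 11, 0 and 0 in wt controls. In heat levels alone, every *poliv* heat library was above every wt heat library for 8 of 8 copies, as in AT1TE12295 with 138880 to 201560 in *poliv* against 30926 to 61142 in wt and AT1TE24850 with 7652 to 11110 in *poliv* against 368 to 2848 in wt. The copies share most of their sequence, so these are not 8 separate observations. The share of all TEs with such a separation was not computed. In sum, *ONSEN* took 6.34% ± 0.859 of the reads in *poliv* and 1.92% ± 0.636 in wt heat libraries (SD, n = 4 each), a ratio of 3.31. The exact permutation test, added after the values were seen, gave p = 0.0286, which did not pass adjustment over the 11 shares compared (0.157). In *ddm1* heat libraries the share was 5.69% ± 0.710 (SD, n = 4; exact permutation p = 0.286 for *poliv* against *ddm1*), and AT1TE71045 stood there at 42892 to 73429.

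**Figure D4:**
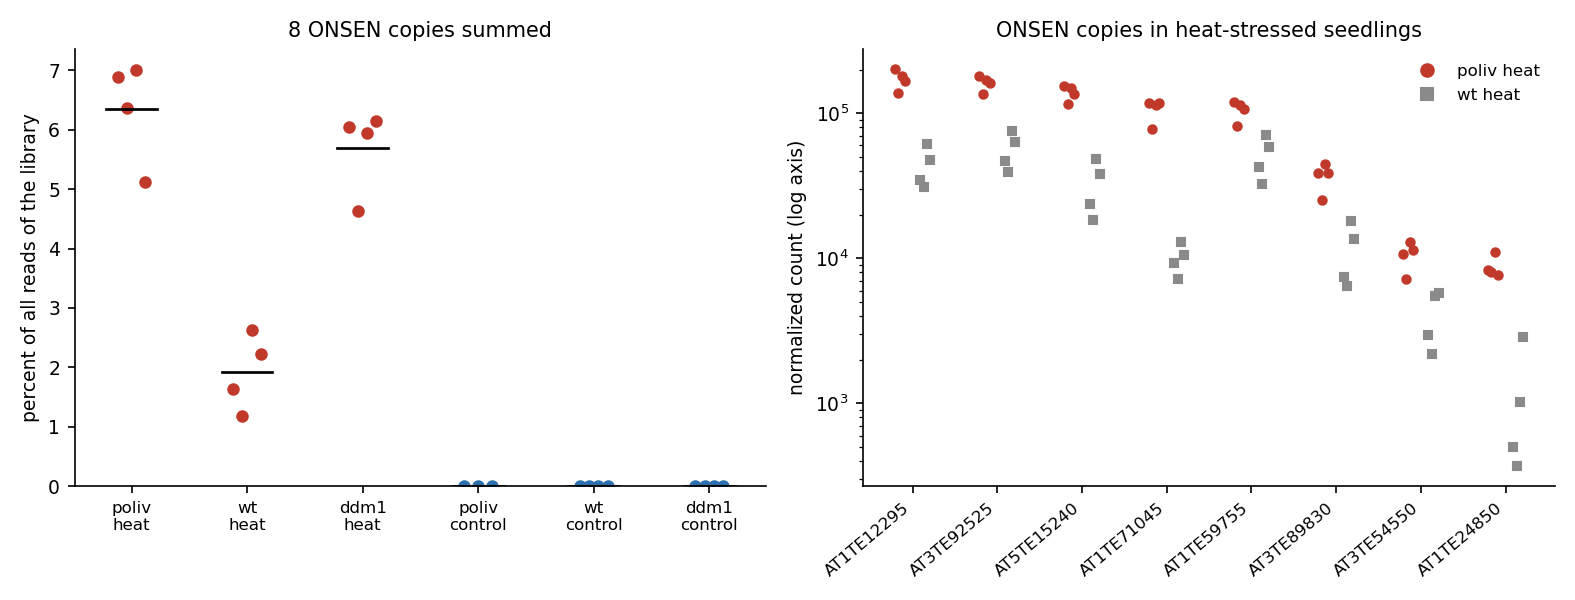
Left, percent of all reads on the 8 *ONSEN* copies in each seedling library, with heat groups of *poliv*, wt and *ddm1* left of their controls and a line at each mean. Right, normalized count (log axis) of each copy in *poliv* heat libraries and wt heat libraries, which do not overlap for any of the 8 copies.

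For most of the other features the genotypes differed in their controls. AT5G35480, an uncharacterized gene, had 2.06, 0, 2.9 and 0.939 normalized counts in *poliv* heat and 733, 513 and 399.9 in *poliv* control libraries, against 1.38, 0, 0 and 0.677 in wt heat and 16.2, 13.8, 12.7 and 14.1 in wt control libraries (difference −4.50 ± 0.69, adjusted p = 0.0157). Its divergent neighbour *MRU1* had 3.44, 0.742, 7.97 and 6.57 in *poliv* heat and 2591, 847 and 995 in *poliv* control libraries, against 0, 1.03, 1.36 and 1.35 in wt heat and 48.7, 35.9, 16.4 and 33.4 in wt control libraries, a fall in both genotypes from unequal control levels. In *ddm1* controls the pair stood at 1032 to 3578 and 4556 to 12825. The 220 bases between the starts of both genes are shown, since the pair is transcribed away from this one stretch (chr5:13689597-13689816, plus strand, RefSeq TAIR10.1; AT5G35480 runs to the left on the minus strand and MRU1 to the right), with no motif marked.
AT5G35480 to MRU1: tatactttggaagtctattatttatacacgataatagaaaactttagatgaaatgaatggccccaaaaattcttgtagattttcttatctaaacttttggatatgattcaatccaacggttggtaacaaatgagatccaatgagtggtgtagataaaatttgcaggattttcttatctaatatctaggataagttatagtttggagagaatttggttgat

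AT3G29639 and the TE AT4TE09845 gave the largest differences, −8.01 ± 0.96 (adjusted p = 0.00081) and −8.44 ± 0.84 (adjusted p = 7.54e-05). AT3G29639, uncharacterized, had 4.81, 6.68, 0 and 0 normalized counts in *poliv* heat and 146, 188 and 164 in *poliv* control libraries, against 2.07, 7.2, 1.36 and 3.39 in wt heat and 0 in each wt control library. AT1G59920, of the MADS-box family, had no reads in *poliv* heat libraries and 43.6, 15.5 and 32.6 in *poliv* controls, against 0 in each wt control (−5.12 ± 0.87, adjusted p = 0.0427). The TE AT5TE35950 had 19.2, 35.6, 135 and 101 in *poliv* heat and 168, 753 and 512 in *poliv* control libraries, against 6.2, 5.15, 20.4 and 2.03 in wt heat and 0 in each wt control library (−5.70 ± 0.93, adjusted p = 0.0351). All these features were silent or nearly silent in wt controls, transcribed in *poliv* controls and lower after heat in *poliv*. Since the lack of control reads in wt sets the zero point, the sizes of these differences depend on the added count of 1. The pattern was not particular to *poliv*. In *ddm1* controls AT1G59920 stood at 1752.9 to 4217.3, AT4TE09845 at 1547 to 3571.4 and AT3G29639 at 170.99 to 439.16. Each was called lower after heat in *ddm1* too. AT5TE35950 went the other way and was called higher in *ddm1*, with 16.562 to 67.656 under heat and 0 to 11.302 in control.

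*KELP* and *CAM9* were expressed in all 4 groups. *KELP*, for a p15-type transcriptional coactivator, had 129, 172, 217 and 161 normalized counts in *poliv* heat and 829.6, 598 and 520.4 in *poliv* control libraries, against 215, 233, 159 and 147 in wt heat and 187, 196, 220.0 and 174 in wt control libraries (difference −1.86, 95% interval −2.55 to −1.17, adjusted p = 0.0441). Here the *poliv* controls stood above the other groups, which overlapped. *CAM9*, for a calmodulin, had 46.7, 39.3, 67.4 and 36.6 in *poliv* heat and 436, 385 and 406 in *poliv* control libraries, against 19.3, 23.7, 32 and 14.9 in wt heat and 1171, 1003.8, 624 and 857 in wt control libraries (difference 2.18, 95% interval 1.38 to 2.99, adjusted p = 0.0441), a fall in both genotypes that was smaller in *poliv*. AT2G07739, of the mitochondrial copy, differed by 3.84 (95% interval 2.47 to 5.22, adjusted p = 0.0441), with 0 in *poliv* controls and 5.28 to 30.6 in wt controls. Of the 9 features, AT1TE71045, AT4TE09845 and AT3G29639 kept their call when any single library was left out, and their adjusted p stayed at or below 0.00581. AT5G35480 lost it without *poliv* control replicate 1 (−4.27, adjusted p = 0.114) and without *poliv* control replicate 3 (−4.53, adjusted p = 0.0639). AT2G07739, *CAM9*, *KELP*, AT1G59920 and AT5TE35950 lost it in 12, 13, 11, 11 and 9 of the leave-one-out fits, at an adjusted p of up to 0.172. The count of genes called ran from 2 without wt heat replicate 1 to 29 without wt heat replicate 3.

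**Figure D5:**
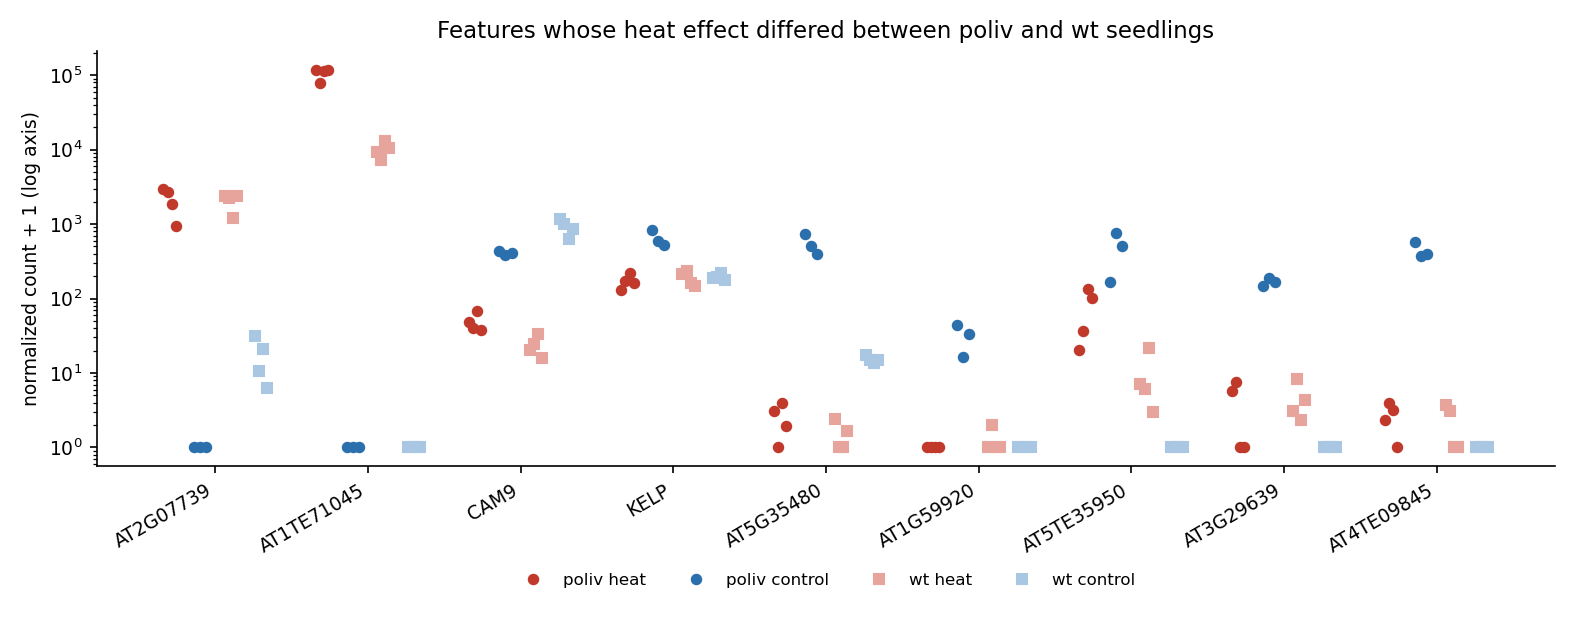
Normalized count + 1 (log axis) in *poliv* heat, *poliv* control, wt heat and wt control seedling libraries for the 9 features whose heat effect differed between *poliv* and wt. AT1TE71045 is between 78458 and 118430 in *poliv* heat libraries and between 7252 and 13057 in wt heat libraries, while AT3G29639, AT1G59920, AT4TE09845 and AT5TE35950 are transcribed in *poliv* controls and at 0 in wt controls.

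Against *ddm1* seedlings the heat effect of *poliv* differed for 94 of 16992 genes (0.553%; 52 higher and 42 lower in *poliv*) and for 326 of 1528 TEs (21.3%; 158 and 168), in either direction. Of the 10 TEs named by the rule, 8 had at most 10.3 normalized counts in any *poliv* library, and it was the *ddm1* groups that stood apart. All 8 lost their call with edgeR, which called 9 genes and 25 TEs for this contrast (1745 genes and 152 TEs at an unadjusted p below 0.05). AT1TE51265 had 0, 2.23, 0 and 0.939 normalized counts in *poliv* heat and 0 in each *poliv* control library, against 461, 752, 211 and 433 in *ddm1* heat and 0 in each *ddm1* control library (−8.06). AT1TE47145 was at 0 in all 7 *poliv* libraries and ran the other way in *ddm1*, with 0 in each heat library and 510.5, 893, 1339 and 74 in controls (8.86). AT4TE15555 and AT4TE20400 were called higher in *poliv*. AT4TE15555 had 777, 935, 547 and 437 in *poliv* heat and 0, 0 and 1.42 in *poliv* control libraries, against 5196, 6793, 13038 and 9871 in *ddm1* heat and 1887, 6547, 8079.9 and 6184 in *ddm1* control libraries (8.19).

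Against sorted *poliv* stem cell nuclei the heat effect of whole seedlings differed for 3889 of 18267 genes (21.3%) and 231 of 653 TEs (35.4%), in either direction, with 2213 of the genes higher in the seedling effect and 1676 lower. Without array weights the counts were 2242 genes and 171 TEs. The nuclei of this day were also prepared with another version of Smart-seq, so tissue, RNA source (nuclear or whole) and library chemistry cannot be told apart here. *CAD9*, for a cinnamyl alcohol dehydrogenase, had 56.4, 57.1, 52.2 and 84.5 normalized counts in heat-stressed and 2322, 1590.2 and 1869 in control *poliv* seedlings, while stem cell nuclei had 159.7 to 464.7 under heat and 60.8 to 144.9 in control (difference −6.74). *ZW9*, a TRAF-like gene, had 0.687, 2.97, 11.6 and 1.88 in heat-stressed and 205, 230.0 and 159 in control seedlings, and 14.8 to 119.0 under heat and 0 to 26.3 in control nuclei (−8.56). In both genes the means were lower under heat in seedlings and higher under heat in nuclei. AT1G21940 had 1019, 1516, 1583 and 967 in heat-stressed seedlings and 0 in each control, at least 317-fold higher, and 0 to 25.2 in heat-stressed nuclei (8.34), while wt heat-stressed seedlings had 35.1, 14.4, 44.9 and 493.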

How the data were processed

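Whole above-ground seedlings were harvested on day 7, RNA was extracted, and libraries were made by Smart-seq (in another version than those of the day 7 stem cell nuclei) and sequenced as single reads. The authors counted reads per gene (TAIR10) and per TE with a workflow pipeline and divided the counts by DESeq2 size factors. The deposited values are therefore a signal per feature, normalized counts, with no length correction. The submitters' processing notes also name bedtools 2.27. The aligner, the counter, strand use and the handling of reads with several matches are not given in the sources used here. The 52 pooled columns of means and SDs were not used.

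Values divided by their step gave whole reads for 100% of entries in the seedling libraries (within 0.1), from which library totals, read shares and floors of 3 reads were taken. The table holds 60886 features (29417 nuclear genes, 31189 TEs and 279 organelle-encoded genes). Normalized counts were tested as log2(value + 1) with limma 3.58.1 in R 4.3.3 (trended, robust moderation) over features averaging 5 or more across the fitted libraries, with Benjamini-Hochberg adjustment over all of them and calls at an adjusted p below 0.05 and a log2 change above 1 in size. Differences between genotypes, and between seedlings and sorted nuclei, were contrasts of heat effects in joint fits, the last with array weights. Shares of reads were compared by exact two-sided permutation tests. As alternatives, edgeR 4.0.16 on the recovered reads called 4109 genes higher and 4028 lower, and DESeq2 1.42.0, TMM scaling, other pseudocounts and filters, a replicate block and leaving out single libraries were also run. The limma procedure was tested on simulated data first.

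Named genes were the 15 largest changes each way among genes with a mean of at least 100 and groups that do not overlap, the 10 highest and 5 lowest TEs with a mean of at least 20, the *ONSEN* copies, members of 29 gene lists, every feature whose heat effect differed between *poliv* and wt, and the 5 largest each way in the other comparisons. The members and the lists were chosen with earlier results of these data known. Promoters were read from RefSeq TAIR10.1 for 16768 of the 16831 genes tested. Intervals and floors cover counting error or the spread of libraries only. The same replicate number did not pair heat with control libraries (r = −0.0112, 0.0261 and −0.0575 between their deviations), so the fits were unpaired.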

Additional observations from a re-analysis of the deposited data

Results flagged for a closer look

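In the heat group of 4 libraries, a single library stood apart from the other 3 (its gap to the nearest other library above the 95% critical value of Dixon for 4 samples) for 9 of 77 named features and 1 of 7 read shares. Chance gives this in about 1 in 20 groups. AT2G07731, of the mitochondrial copy, reached 12678 normalized counts in replicate 3, against 4646 to 5462 in the other heat libraries. *HTR2* was highest in replicate 3, at 23.9, and the *ONSEN* copy AT1TE71045 was lowest in replicate 2, at 78458. The share of reads on chloroplast genes was 11.05% in replicate 1. The other 6 were features almost without reads under heat, where 1 library held 1 or a few reads: AT5G48490 had 1.45 in replicate 3, *KDR* 2.23 in replicate 2, *EXPA8* 0.939 in replicate 4, AT5G62280 1.48 in replicate 2, AT5TE48720 2.75 in replicate 1 and AT5TE48725 0.687 in replicate 1.

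The heat effect of *poliv* seedlings differed from that of wt seedlings by the limma contrast, in log2 units, for AT2G07739 (3.84), AT1TE71045 (3.43), *CAM9* (2.18), *KELP* (−1.86), AT5G35480 (−4.50), AT1G59920 (−5.12), AT5TE35950 (−5.70), AT3G29639 (−8.01) and AT4TE09845 (−8.44). Against *ddm1* seedlings the named TEs differed by 8.86 (AT1TE47145), 8.19 (AT4TE15555), 8.07 (AT4TE18445), 7.81 (AT4TE20400) and 7.20 (AT3TE56720), and by −8.06 (AT1TE51265), −7.96 (AT5TE36830), −7.85 (AT2TE00120), −7.67 (AT4TE15825) and −7.66 (AT5TE42270). Against *poliv* stem cell nuclei the seedling effect differed by 9.93 for ATCG01000, a chloroplast *ycf1* gene, 8.42 for AT2G01008, 8.41 for AT4G36988, 8.34 for AT1G21940 and 8.09 for AT2G16586, and by −8.56 for *ZW9*, −7.01 for AT4G22510, −6.87 for AT4TE54820, −6.74 for *CAD9* and −6.69 for *SPL13B*.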

How the results depend on the processing

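No feature followed singly through the alternatives changed the direction of its heat effect in any of them. These were the genes and TEs with the largest changes, the *ONSEN* copies and part of the list members. The remaining list members, some of them with changes near 0, were not followed singly. The excess of lower over higher calls depended on the scaling: TMM gave 4181 higher and 4055 lower genes and edgeR 4109 and 4028, and the median of all genes was −0.15 with the deposited scaling, 0.06 with either of these and 0.02 with DESeq2. The counts of genes ran from 2934 to 4181 higher and from 3556 to 5035 lower over all alternatives run, the ends set by the filter (a mean of at least 20, or any value above 0) and, for 4181, by TMM scaling. Of the values for the features followed singly, 1226 stayed on their side of the threshold. *AOX1A* lost its call with the replicate block and without control replicate 3, and *TCH3* gained one without heat replicate 4. With the replicate block, which did not pair the libraries, 3416 genes were called higher and 4440 lower. TE counts followed the filter, since the number of TEs tested changes. With a mean of at least 20, 81 of 157 TEs were higher and 22 lower. With any value above 0, 291 of 2662 TEs were higher and 72 lower. The difference of TE shares ran from 6.28 to 6.92 percentage points in leave-one-out comparisons, where the smallest exact p the design allows lies above 0.05.

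For *poliv* against wt, edgeR called 0 genes and 0 TEs, a pseudocount of 5 called 5 TEs, and leave-one-out fits called 2 to 29 genes (29 without wt heat replicate 3, 11 without wt control replicate 3). For *poliv* against *ddm1*, a pseudocount of 5 called 164 genes, edgeR called 9 genes and 25 TEs, and leave-one-out fits called 54 to 169 genes (169 without *ddm1* control replicate 1). Without array weights, seedlings differed from stem cell nuclei for 2242 genes, and *SPL13B* lost its call. Among the lists, the count of members higher ran from 1 to 5 for DNA damage and for reference genes, from 1 to 7 for immune genes and from 2 to 7 for PolIV and small RNA genes, and the median of vascular markers ran from −1.42 to −0.50. The cause of these shifts was not tested. Low reads in at least 1 group limit most of the large differences between genotypes.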
